A study of Mus musculus with 23 samples.

Results

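RNA contacts of the chromatin architectural protein CTCF were examined on the transcripts of 8 ubiquitin ligase genes: Huwe1, Trip12, Ubr4, Herc1, Herc2, Itch, Ube3a and Ube3c. Members were chosen by measured values of these same lists: Huwe1 and Trip12 ranked 3 and 4 among all genes by their number of sites in ESC WT, and related giant or HECT-type ligases were added to them. Their counts in ESC WT are therefore given as a description, as is every comparison that uses that list, since the choice rests on it. The gene just behind Trip12 was Ncor1, with 1045 sites against 1058. The 8 genes are members of an annotation of 55413 genes on chromosomes 1 to 19, X and Y, of which 13608 held at least 1 site in some list, and they held 3234 of the 451137 sites of ESC WT.

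All libraries came from E14 mouse embryonic stem cells (ESCs) in which the endogenous CTCF carries an AID2 degron, so that the compound 5-Ph-IAA removes the protein, and in which doxycycline induces a tagged rescue CTCF. The rescue was wild type (WT) or a mutant lacking part of zinc finger 1 (ΔZF1), each in 1 clonal line. All groups, controls included, received 1 µM 5-Ph-IAA with 1 µg/mL doxycycline for 24 hours, so every group lacks endogenous CTCF to the extent that degradation worked. RNA bound to the Flag-tagged rescue protein was profiled by iCLIP2 in ESCs and in neural progenitor cells (NPCs) after 2 days of differentiation, with 400 mJ/cm2 of UV at 254 nm, or without UV (noXL). The 23 libraries made up 6 groups of 4, save that NPC WT had 3: WT, ΔZF1 and noXL in each cell type. The noXL groups were both made from the WT rescue line, so the ΔZF1 line has no control of its own here.

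Each value is a crosslink site, a single nucleotide called after the libraries of a group had been merged, so there is 1 list per group and no replicate error. No test between conditions was possible, and ranges in parentheses are 95% intervals (Wilson, or derived from it for a ratio) that cover counting error only. The read depth is unknown, so ratios between lists were scaled to the sites that each list held in genes. For ESCs these numbered 429119 (WT), 217770 (ΔZF1) and 150821 (noXL), and for NPCs 230147, 153211 and 102002. A scaled log2 ratio of 0 means that a gene kept its share of the genic sites, and 1 or -1, the limits used here, means a 2-fold difference in that share. Of the 6 stem cell markers searched, 5 lay at or below -1 in NPC WT over ESC WT, with 5 sites against 343 for Tfcp2l1 and 0 against 460 for Esrrb. Tfcp2l1 was also lower in NPC noXL over ESC noXL, at -5.91, so the control lists carry differences between the cell types too. Of the neural markers, Nes held 28 sites in NPC WT against 2 in ESC WT, Sox2, which stem cells also express, held 9 against 35 (-0.95), and Sox1, Pax6, Hes5 and Zic1 held none in any of the 4 UV lists, so the neural label rests on few transcripts here.

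Ubiquitin ligases pass ubiquitin to a substrate protein, and the chain that forms often sends the substrate to the proteasome. HECT ligases, named after a domain at their C-terminal end, first take the ubiquitin onto their own catalytic cysteine, whereas Ubr4 belongs to the UBR box proteins that recognise destabilising N-terminal residues. CTCF is known for binding DNA with its zinc fingers and for halting cohesin at loop anchors, and it also contacts RNA. The ligase genes are long and contain many introns, so their primary transcripts offer far more intronic than exonic sequence.

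Few nucleotides of these genes were called repeatedly. Over the 4 UV lists the members held 6443 different site positions, of which 6019 appeared in 1 list, 370 in 2, 47 in 3 and 7 in all 4. The same count was not made over all genes, so low recurrence is not shown to be particular to the members. On the same nucleotide as an ESC WT site lay 145 of 1613 ESC ΔZF1 sites of the members, beside 24599 of 217770 over all genic sites. The 7 positions shared by all UV lists are printed because they were called at the same nucleotide in every UV list. Each sequence is 21 nt of RNA from GRCm38 on the gene's strand, 5′ to 3′, and the capital letter at position 11 is the called site.

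Huwe1 exon 65, coding, chrX:151917544-151917564, plus strand: cuuguagcuuUuaccagucgc
Huwe1 exon 67, coding, chrX:151919583-151919603, plus strand: ccagccacuuUacacagcagc
Trip12 exon 32, coding, chr1:84738806-84738826, minus strand: ucuuuccuuuUgauacccgac
Trip12 exon 41, coding, chr1:84724792-84724812, minus strand: uuucggaguuUaaauccaccu
Ube3c exon 2, coding, chr5:29587284-29587304, plus strand: gcuucucuuuUacaucgcacu
Trip12 exon 1, 5′ UTR, chr1:84839280-84839300, minus strand: ggggugggggGagccagugga
Ube3c exon 1, 5′ UTR, chr5:29569383-29569403, plus strand: gagcgcugagCcucggggggg

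The 5 coding sites all lay on the third uridine of a UUU triplet, and none of these 5 nucleotides was called in a noXL list, although a noXL site lay within 5 nt of the Huwe1 exon 67 site in ESCs and of the Trip12 exon 41 site in NPCs. The other 2 sites lay in G- or C-rich 5′ UTRs, on a guanosine and a cytidine, and were also called without UV: the Trip12 site scored 49.9 in ESC noXL, and the Ube3c site scored 58.5 in NPC noXL, above its scores of 16.0 to 26.5 in the UV lists. PureCLIP scores rank sites within a list and are not scaled to depth. The Huwe1 exon 65 site was that gene's highest in ESC WT, with scores of 70.3 (WT) and 27.5 (ΔZF1) in ESCs and 30.1 and 3.77 in NPCs. The Trip12 exon 1 site was the highest of all members in ESC WT, at 112.4.

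No site of Ubr4, Herc1, Herc2, Itch or Ube3a was called in all 4 UV lists. The highest scoring ESC WT sites of the last 4 genes are printed for that contrast, since none of them had a site of another list within 5 nt.

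Herc1 exon 65, coding, chr9:66486238-66486258, plus strand: aagugguacaGgucaggcaca
Herc2 exon 11, coding, chr7:56097506-56097526, plus strand: uucuugaucuUgucccgcaau
Itch exon 6, coding, chr2:155172556-155172576, plus strand: aacauuaaagUcaaacaauau
Ube3a exon 6, coding, chr7:59276785-59276805, plus strand: auuauaccuuUuucaaaguug

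Their ESC WT scores were 18.997 for Herc1, 20.5 for Herc2, 15.5 for Itch and 27.8 for Ube3a, against 44.0 for the best Ubr4 site, in the 5′ UTR of exon 1, and 24.4 for the best Ube3c site, 1 nt downstream of the 5′ UTR site shown above. These best scores and the 7 shared positions come from genes with 86 to 1161 ESC WT sites. No rate over all genes stands beside them, so no difference between members is read from them.

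The number of sites per gene fell into separate ranges. Huwe1 and Trip12 held 1161 and 1058 sites in ESC WT, or 8.62 and 8.87 per kb of gene body, Ubr4 held 431 (3.15 per kb), and the other 5 held 86 to 152 (0.584 to 1.72 per kb). All 8 genes had more sites in ESC WT than in any other list, but that list is also the longest, with 429119 genic sites, and these counts are not scaled. The order of the genes was not fixed, since Trip12 was ahead of Huwe1 in ESC ΔZF1 and behind Ubr4 in both NPC UV lists.

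The genes also differed in where the sites lay. In ESC WT, 67.3% of the Huwe1 sites and 79.5% of the Trip12 sites were in introns, while the median gene with at least 50 sites had 30.3% of its sites there. Without UV the shares were higher, at 84.8% and 86.9% in ESC noXL beside a median of 56.0%, so a high intron share is not particular to crosslinked sites. In NPC ΔZF1 Huwe1 stood at 73.1% and Trip12 at 55.9%, beside a median of 57.4%. The exon share was 32.7% (30.1 to 35.5) for Huwe1 and 20.5% (18.2 to 23.0) for Trip12, against 74.9% (70.6 to 78.8) for Ubr4 and 76.8% to 88.2% for Herc1, Herc2, Itch, Ube3a and Ube3c. The intervals of the first pair did not reach those of the other 6 genes. Per kb of intron, Trip12 held 8.19 sites and Huwe1 7.03, Ubr4 held 0.908, and the other 5 held 0.0846 to 0.531. Per kb of exon the spread was smaller, from 4.88 in Herc1 to 17.9 in Ubr4, with 16.2 in Huwe1 and 13.1 in Trip12.

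**Figure D1:**
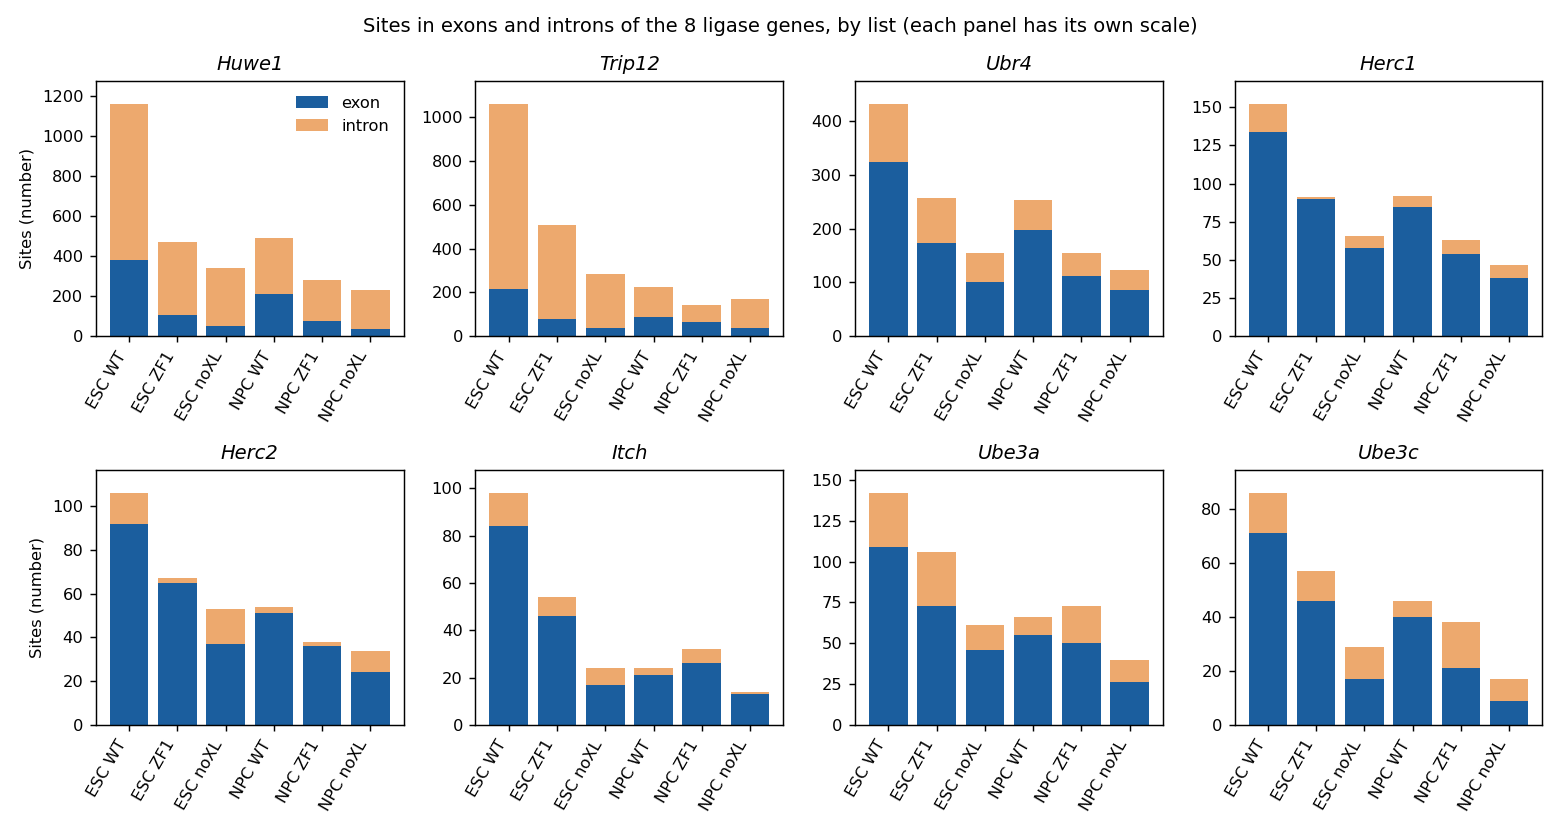
Stacked bars give the number of sites in exons (blue) and introns (orange) of each gene in the 6 lists, with a separate linear scale for each gene; ZF1 marks the ΔZF1 rescue. Huwe1 and Trip12 are mostly orange in ESC WT, with 781 and 841 intron sites, and the other 6 genes are mostly blue in that list.

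Huwe1, which marks proteins such as MCL1 and MYCN for destruction, spans chromosome X from 151800807 to 151935417 (plus strand). The gene held 1161 sites in ESCs and 494 in NPCs with the WT rescue, 473 and 283 with ΔZF1, and 341 and 230 without UV. The WT list was the highest and the noXL list the lowest in both cell types, which is also the order of the genic sites of these lists. Of the 82 introns in its transcript with the longest coding sequence, 66 held an ESC WT site, and intron 2, 28363 nt long, held 218 of them. Sites were spread along the body, with 268, 304, 303 and 286 in 4 equal stretches from start to end, and the densest 500-nt stretch held 14 sites. Intron sites did not gather next to exons: 2.94% (1.97 to 4.38) lay within 50 nt of an exon, a zone that makes up 7.94% of the intron length.

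Exon sites of Huwe1 numbered 380 in ESCs and 212 in NPCs with WT, 105 and 76 with ΔZF1, and 52 and 36 without UV. The WT lists held the most in both cell types, as they did for exon sites over all genes. Relative to the exon sites of each list, the scaled log2 ratio of WT over noXL was 1.18 (0.79 to 1.62) in ESCs and 1.00 (0.53 to 1.54) in NPCs, where 9.29% of 5738 and 9.49% of 4129 genes read on exon sites were at or above 1. That of ΔZF1 over WT was -0.90 (-1.22 to -0.60) in ESCs and -0.61 (-0.996 to -0.242) in NPCs, and in introns, scaled to intron sites, it was -0.04 (-0.22 to 0.14) and -0.41 (-0.67 to -0.16). Intron sites gave 0.19 (-0.00 to 0.39) and 0.03 (-0.24 to 0.29) for WT over noXL. Over all its sites Huwe1 stood at 0.26 (0.08 to 0.43) in ESCs and -0.07 (-0.30 to 0.15) in NPCs, the latter with an interval that held 0. With ΔZF1 the exon value over noXL was 0.28 (-0.18 to 0.77) in ESCs and 0.40 (-0.15 to 0.99) in NPCs, with intervals that held 0.

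**Figure D2:**
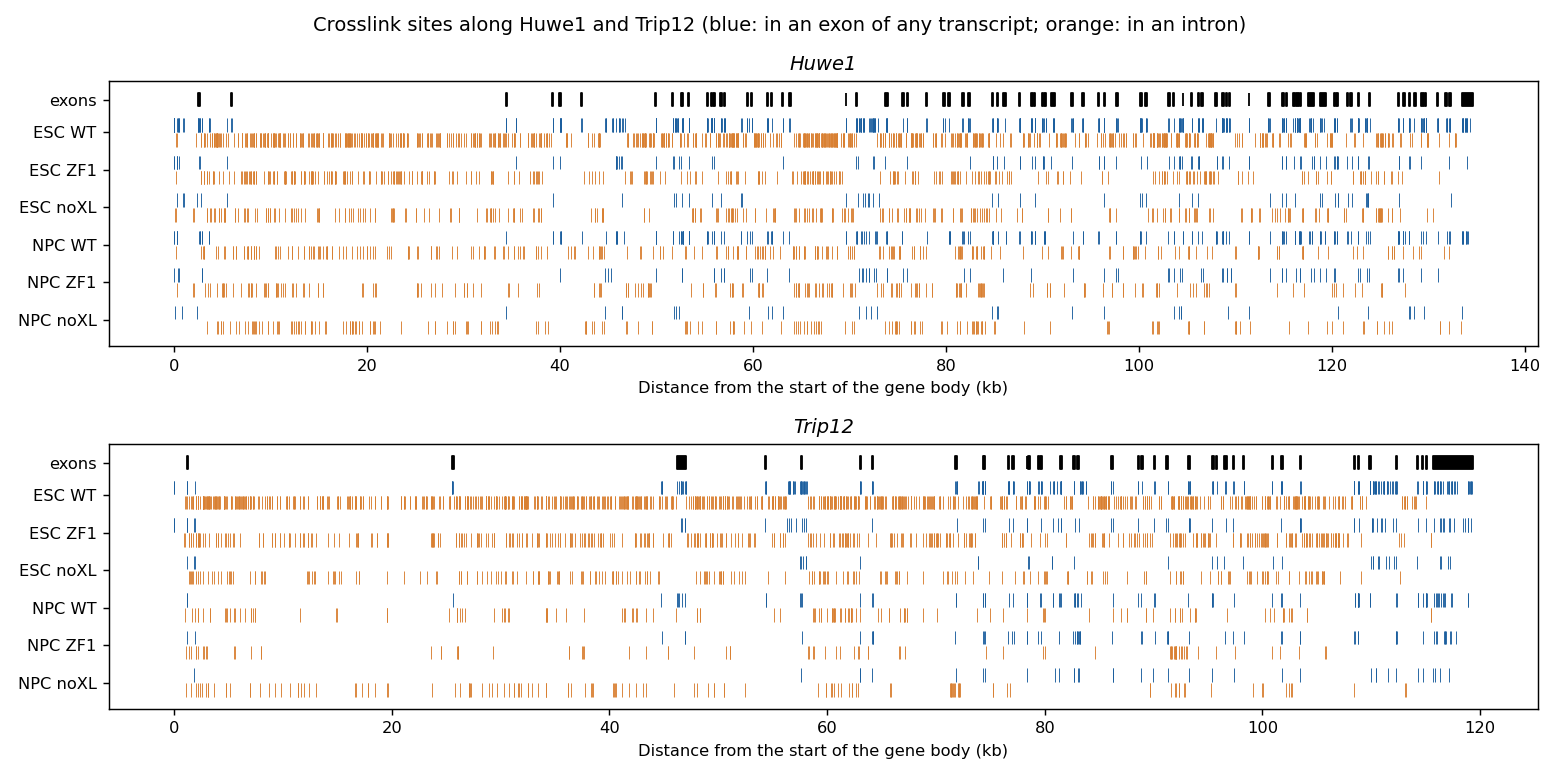
Every site is drawn as a tick at its distance in kb from the start of the gene body, for Huwe1 (top) and Trip12 (bottom), with 1 row pair per list (blue: exon sites; orange: intron sites) and the exons of the transcript with the longest coding sequence in black. Orange ticks cover nearly the whole body in ESC WT, and they thin out in the NPC lists of Trip12, which hold 139, 80 and 135 intron sites in WT, ΔZF1 and noXL.

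Trip12, a HECT ligase known for its part in the DNA damage response and in the ubiquitin fusion degradation pathway, spans chromosome 1 from 84721189 to 84840516 (minus strand). The gene held 1058 sites in ESCs and 226 in NPCs with the WT rescue, 508 and 143 with ΔZF1, and 283 and 171 without UV. The 3 ESC lists all exceeded the 3 NPC lists, and NPC ΔZF1 had fewer sites than the NPC control. Of its 40 introns, 32 held an ESC WT site, with 189 sites in intron 2 and 181 in intron 1, which are 20495 and 24259 nt long. The putative transcripts Gm38374 and Gm37738, annotated on the same strand within introns 2 and 1, held 22 and 27 of these sites.

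Intron sites of Trip12 numbered 841 in ESCs and 139 in NPCs with WT, and 430 and 80 with ΔZF1, whereas the control lists held 246 and 135. Per kb of intron, NPC WT held 1.35 sites and NPC noXL 1.31, and ESC WT held 8.19 against 2.39 in ESC noXL, but these densities are not scaled to list length. On the intron sites of each list, the scaled log2 ratio of WT over noXL was -0.47 (-0.81 to -0.13) in NPCs and 0.53 (0.33 to 0.74) in ESCs. Scaled to the intron and exon sites of each list, the value of NPC WT over ESC WT was -1.38 (-1.65 to -1.13) in introns and -0.54 (-0.91 to -0.20) in exons of Trip12, beside 23.8% of 2048 genes at or below -1 on intron sites and 8.97% of 6378 on exon sites. With ΔZF1 the intron value was -2.22 (-2.57 to -1.89), with 24.2% of 1623 genes at or below -1, whereas the exon value was 0.38 (-0.10 to 0.85). Intron 1, the longest, held 181 sites in ESCs and 27 in NPCs with the WT rescue, and 49 and 36 without UV. RNA levels were not measured in these lists, so fewer transcripts, fewer cells with the transcript and fewer contacts per transcript cannot be told apart.

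**Figure D3:**
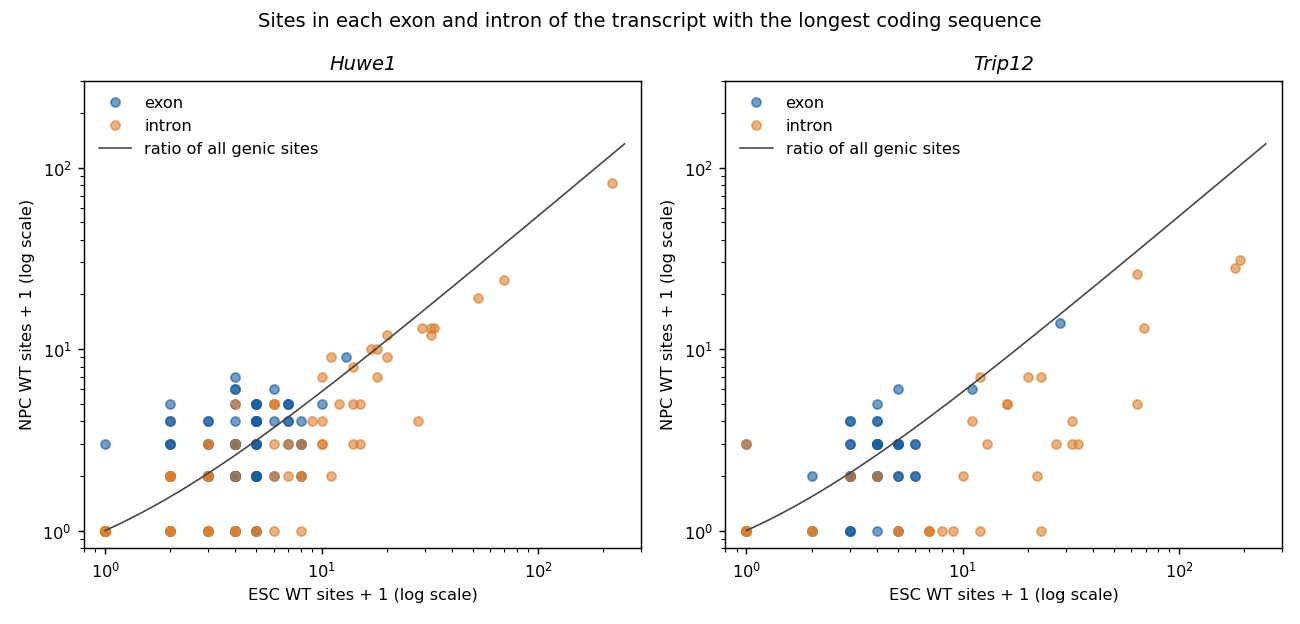
Each point is 1 exon (blue) or intron (orange) of Huwe1 (left) or Trip12 (right), placed by its ESC WT sites (x) and NPC WT sites (y), both plus 1 on log axes, and the line marks the ratio of all genic sites in the lists. The longest intron of Trip12 stands at 181 and 27 sites and that of Huwe1 at 218 and 81, before 1 is added.

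Ubr4, a very large ligase of the N-degron pathway, spans chromosome 4 from 139352609 to 139489588 (plus strand). The gene held 431 sites in ESCs and 254 in NPCs with the WT rescue, 257 and 155 with ΔZF1, and 155 and 123 without UV. Coding exons held 315 of the ESC WT sites, and 100 of the 106 exons of the transcript with the longest coding sequence had at least 1. The annotated body overlaps Emc1, a subunit gene of the complex that inserts membrane proteins in the endoplasmic reticulum, on the same strand, and 69 of the 431 sites lay in both genes. The introns of the transcript with the longest coding sequence, which starts downstream of Emc1, held 38 ESC WT sites, against 108 intron sites over the whole annotated body.

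Herc1 and Herc2 encode giant proteins that combine RCC1-like domains with a HECT domain, and Herc2 is known from DNA repair and from the regulation of Ube3a. Herc1 (chromosome 9 from 66350450 to 66508775, plus strand) held 152 sites in ESCs and 92 in NPCs with WT, 91 and 63 with ΔZF1, and 66 and 47 without UV. Herc2 (chromosome 7 from 56050196 to 56231800, plus strand) held 106 and 54, 67 and 38, and 53 and 34 sites in the same order. Coding exons held 128 of the 152 and 87 of the 106 sites in ESC WT, and 51 of 66 and 36 of 53 in ESC noXL. In ESC ΔZF1, 1 of 91 Herc1 sites and 2 of 67 Herc2 sites were intronic, at 0.00764 and 0.0121 per kb of intron. The first part of the Herc2 coding sequence, cut into 3 equal parts, held 39 of 87 coding sites in ESC WT and 26 of 49 in NPC WT, but also 23 of 36 in ESC noXL.

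Itch, Ube3a and Ube3c encode smaller HECT ligases: Itch is a NEDD4 family member known for its part in T cell tolerance, Ube3a is imprinted in neurons and lost in Angelman syndrome, and Ube3c acts at the proteasome. Itch (chromosome 2 from 155133509 to 155226855, plus strand) held 98 sites in ESCs and 24 in NPCs with WT, 54 and 32 with ΔZF1, and 24 and 14 without UV. Itch was, with Ube3a, 1 of 2 members with more ΔZF1 than WT sites in NPCs. Ube3a (chromosome 7 from 59228750 to 59311536, plus strand) held 142 and 66, 106 and 73, and 61 and 40 sites in the same order. Ube3c (chromosome 5 from 29569242 to 29676092, plus strand) held 86 and 46, 57 and 38, and 29 and 17. In the transcript with the longest coding sequence, the 3′ UTR held 58 ESC WT sites in Ube3a (8.78 per kb), 25 in Itch (10.5 per kb) and 13 in Ube3c (8.52 per kb), while the coding sequences held 13.8, 13.9 and 14.8 sites per kb. The 3′ UTR densities of Huwe1 and Trip12 were 7.71 and 6.99 per kb, and in Ube3a 30 of 61 sites without UV lay in the 3′ UTR too.

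The comparison with non-crosslinked cells asked whether UV raised the share of sites on these transcripts. In ESC WT over ESC noXL, 0 of 8 members passed either limit, where 8.12% of 6208 genes were at or above 1 and 6.6% at or below -1. Trip12 had a scaled log2 ratio of 0.39 (0.20 to 0.58), Huwe1 of 0.26 (0.08 to 0.43) and Herc2 of -0.52 (-0.98 to -0.03), and the intervals of the other 5 held 0. The median member lay at -0.01 and the median gene at 0.02. In ESC ΔZF1 over ESC noXL (7.86% of 5013 genes higher and 6.56% lower) again no member passed, Trip12 stood at 0.31 (0.10 to 0.52) and the other 7 intervals held 0.

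In NPC WT over NPC noXL, 7 of 8 members were below 0, with a median of -0.33 against 0.03 over all 4765 genes read, and none passed a limit (10.5% of genes higher and 6.51% lower). Trip12 had the lowest value, -0.77 (-1.06 to -0.49). In NPC ΔZF1 over NPC noXL (7.19% of 3699 genes higher and 8.03% lower), Trip12 stood at -0.84 (-1.16 to -0.53), Huwe1 at -0.29 (-0.54 to -0.04), 3 members were above 0 and 5 below, and no member passed. Trip12 was thus above the control share in ESCs and below it in NPCs with both rescue proteins, and these pairs of comparisons share their control lists. In exons alone the NPC value of Trip12 was -0.27 (-0.81 to 0.31) with WT and 0.13 (-0.44 to 0.73) with ΔZF1, both with intervals that held 0, and in introns alone it was -0.47 (-0.81 to -0.13) and -1.23 (-1.63 to -0.84), the latter past the limit, where 12.6% of 1361 genes were lower on intron sites.

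The comparison of the rescue proteins asked whether loss of zinc finger 1 sequence changed the share of sites. Over all sites, no member passed a limit in ESC ΔZF1 over ESC WT (6.84% of 6518 genes higher and 5.45% lower) or in NPC ΔZF1 over NPC WT (5.76% of 5274 higher and 7.36% lower). Huwe1 was lower with ΔZF1 in ESCs, at -0.32 (-0.47 to -0.16), and in NPCs, at -0.21 (-0.43 to -0.01). Ube3a was higher in both, at 0.56 (0.19 to 0.92) and 0.73 (0.25 to 1.21). Itch stood at 0.13 (-0.36 to 0.60) in ESCs and 0.99 (0.25 to 1.76), just inside the limit, in NPCs. Ubr4 stood at 0.23 (0.01 to 0.46) in ESCs, or 0.12 (-0.14 to 0.36) without the sites that also lay in another gene, and -0.12 (-0.41 to 0.16) in NPCs. For Trip12, Herc1, Herc2 and Ube3c the intervals over all sites held 0, which does not show that the lists were alike. By part of the gene, Trip12 stood at -0.52 (-0.90 to -0.16) in exons and 0.08 (-0.09 to 0.25) in introns in ESCs, and at 0.40 (-0.07 to 0.86) in exons and -0.76 (-1.16 to -0.37) in introns in NPCs. Past the limit in 1 part alone were the NPC exon sites of Itch, at 1.16 (0.35 to 1.99), the NPC intron sites of Ube3c, at 1.39 (0.24 to 2.83) on 17 and 6 sites, and the intron sites of Ube3a, at 1.05 (0.36 to 1.73) in ESCs and 1.03 (0.08 to 2.11) in NPCs. Among all genes, 4.39% were higher on NPC exon sites, and 10.2% (ESC) and 13.8% (NPC) on intron sites. Summed over the members, the value was -0.02 (-0.11 to 0.06) in ESCs and -0.02 (-0.15 to 0.11) in NPCs, with both intervals holding 0.

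**Figure D4:**
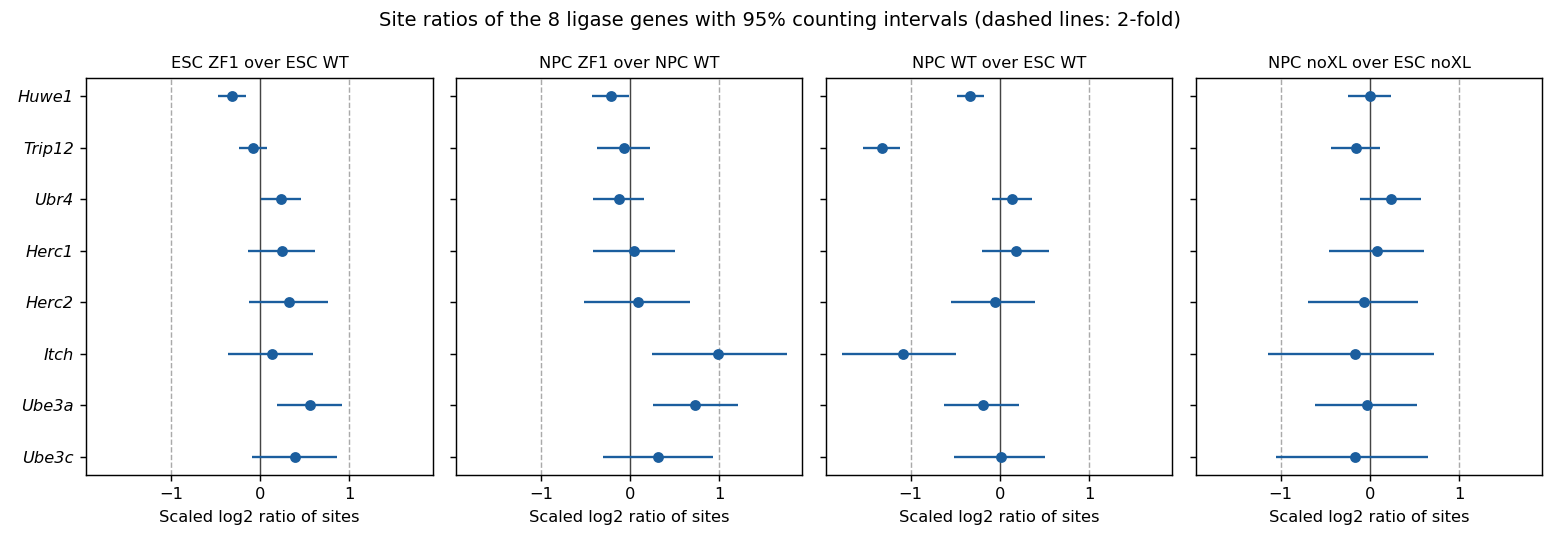
Points give the scaled log2 ratio of sites for each gene in 4 comparisons, with 95% counting intervals as bars, a solid line at 0 and dashed lines at the 2-fold limits; ZF1 marks the ΔZF1 rescue. Trip12 (-1.32) and Itch (-1.09) lie beyond the lower limit in NPC WT over ESC WT, and all 8 intervals hold 0 in the comparison of the control lists.

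Between cell types, Trip12 and Itch passed the lower limit in NPC WT over ESC WT, at -1.32 (-1.54 to -1.12) and -1.09 (-1.77 to -0.49), 2 of 8 members where 10.4% of 6730 genes were lower and 11.5% higher. Huwe1 stood at -0.33 (-0.49 to -0.18), and the intervals of the other 5 held 0. With the ΔZF1 rescue Trip12 stood past the limit at -1.31 (-1.59 to -1.05), while Itch stood at -0.23 (-0.87 to 0.38) and Huwe1 at -0.23 (-0.45 to -0.02), in a comparison where 10.9% of 5113 genes were higher and 14.1% lower. In exons alone the Trip12 values were -0.54 with WT and 0.38 (-0.10 to 0.85) with ΔZF1, neither past the limit. The Itch value in the WT lists rests on 24 NPC sites. With a score minimum it was -0.60 (-1.70 to 0.31) and on uridine sites -0.80 (-1.59 to -0.12), both short of the limit. In exons alone it was -1.18 (-1.92 to -0.55) on 21 and 84 sites, past the limit, where 8.97% of 6378 genes were lower. Its introns, with 3 and 14 sites, held too few to be read.

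In the control lists, NPC noXL over ESC noXL, no member passed a limit (11.1% of 3726 genes higher and 12.3% lower), the values ran from -0.17 to 0.23, and Trip12 stood at -0.16 (-0.44 to 0.11). Its introns stood at -0.38 (-0.69 to -0.08) and its exons at 0.59 (-0.07 to 1.24). The NPC over ESC value of Trip12 in the WT lists less that in the noXL lists was -1.16 (-1.51 to -0.82), which 4.77% of 3666 genes reached or undercut. With ΔZF1 it was -1.16 (-1.54 to -0.77), and 8.22% of 3527 genes were as low, both values resting on the same controls. In exons alone it was -1.13 (-1.87 to -0.38) with WT and -0.21 (-1.02 to 0.60) with ΔZF1, on 36 and 37 control sites. In introns alone it was -0.997 (-1.39 to -0.60) with WT, as low as in 13.3% of 1307 genes, and -1.83 (-2.29 to -1.38) with ΔZF1, so with WT the difference was of like size in exons and introns. For Huwe1 these differences were -0.33 (-0.62 to -0.05) and -0.23 (-0.55 to 0.09).

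The nucleotide under a site is a check on crosslinking, since UV at this wavelength links uridine most readily. Of the members' sites, 65.5% (63.8 to 67.1) lay on uridine in ESC WT and 68.0% (65.4 to 70.5) in NPC WT. With ΔZF1 it was 54.2% (51.7 to 56.6) in ESCs and 64.5% (61.2 to 67.7) in NPCs. Without UV the share was 29.2% (26.4 to 32.0) in ESCs and 28.1% (24.8 to 31.6) in NPCs, and uridine made up 32.8% of the gene bodies. All 8 members had a higher share in each UV list than in the noXL list of the same cell type. Huwe1 and Trip12, at 70.3% (67.6 to 72.8) and 68.1% (65.3 to 70.9), exceeded the 60.6% of all genic ESC WT sites, and Ubr4, at 56.1% (51.4 to 60.8), did not. Their bodies differ in uridine too, at 33.5%, 34.8% and 28.3% in this order. In NPC WT, beside 64.6% over all genic sites, Huwe1 stood at 72.7% (68.6 to 76.4). Trip12 stood there at 68.6% (62.3 to 74.3), with an interval that held that level. In ESC ΔZF1 Huwe1 and Trip12 stood at 56.0% and 56.1%, beside 49.2% over all genic sites of that list, whereas in NPC ΔZF1 they stood at 69.3% and 69.2%, beside 59.0%. The intron sites of Huwe1 (70.0%) and Trip12 (66.9%) in ESC WT had shares of uridine close to those of their exon sites (70.8% and 72.8%).

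**Figure D5:**
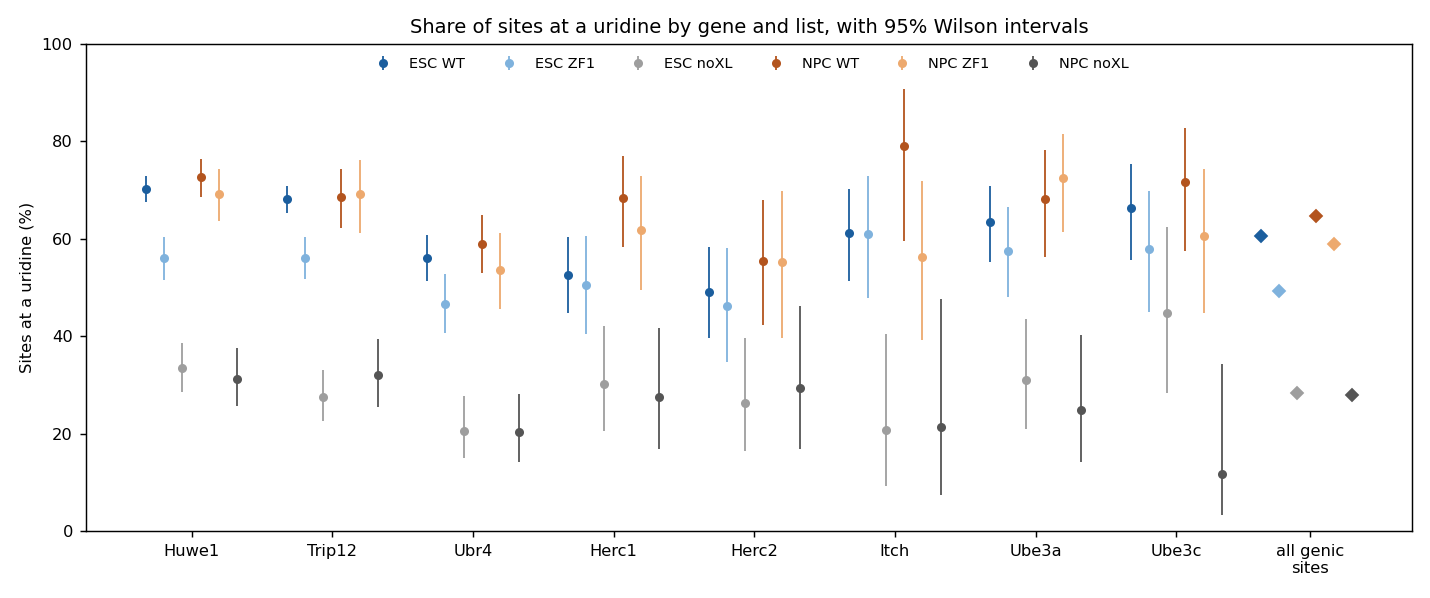
Points give the percent of sites that lie on uridine for each gene and list, with 95% Wilson intervals, and diamonds give the same over all genic sites of a list; ZF1 marks the ΔZF1 rescue. In each gene the grey noXL points lie below the 4 UV points, at 11.8% to 44.8%.

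The UUU triplet ending at the site, seen in the 5 recurrent coding sites above, was more general. It was found at 19.2% (17.9 to 20.6) of members' sites in ESCs and 22.0% (19.8 to 24.3) in NPCs with WT, and with ΔZF1 at 13.5% (11.9 to 15.2) and 15.6% (13.3 to 18.3). In noXL it was found at 4.94% (3.77 to 6.45) and 4.73% (3.37 to 6.61), near the 4.67% of all nucleotides in these bodies, read on the gene's strand only. Over all genic sites the share was 16.1% in ESC WT and 3.28% in ESC noXL. In ESC WT the share was 26.1% in Ube3a, where 6.57% of the body's nucleotides end such a triplet, and 5.66% (2.62 to 11.8) in Herc2, where 4.49% do.

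Whether both rescue proteins contacted the same places was examined with sites within 5 nt on the same strand. In ESCs, 341 of 1613 ΔZF1 sites of the members (21.1%, 19.2 to 23.2) had a WT site that close, against 5.84% when the sites were shifted by 500 or 1000 nt. In NPCs it was 105 of 825 (12.7%, 10.6 to 15.2) against 2.42%. Over all genic sites the shares were 24.2% and 13.1%, against shifted shares of 4.23% and 2.05%. Huwe1 (24.5%), Ubr4 (23.7%), Ube3a (21.7%) and Trip12 (21.5%) were near that level in ESCs, and Herc1 (9.89%, 5.29 to 17.7) and Herc2 (8.96%, 4.17 to 18.2) were below it. Itch (14.8%, 7.70 to 26.6) and Ube3c (15.8%, 8.54 to 27.4) were lower too, with intervals that held it. The shifted shares differed between members, at 7.88% for Huwe1, 8.12% for Trip12 and 1.37% to 4.63% for the others. Members near the same level are therefore not alike in excess over the shift. A shift can also carry an exon site into an intron. Between the cell types, 31.4% (28.9 to 34.0) of the NPC WT sites of the members lay near an ESC WT site, against 28.2% over all genic sites and 6.33% after shifting the member sites. Near an ESC noXL site lay 5.10% of the ESC WT member sites, with 2.44% after shifting, but that list is shorter and the shares are not on one scale.

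Among 23 further HECT and UBR ligases, 13 held at least 20 sites in ESC WT. Nedd4 held 544 and Herc4 493, with 68.4% and 75.9% of them in introns. In Ubr3, with 239 sites, the share was 49.0%, and the other ligases reported here with at least 20 sites had 0 to 13.2%. In ESC ΔZF1 over ESC WT, Hectd4 was past the upper limit (17 and 8 sites, 1.98) and Smurf2, a ligase of the TGF-β pathway, past the lower (9 and 78 sites, -2.003), of 15 read, where 6.84% of all genes were higher and 5.45% lower. In NPC ΔZF1 over NPC WT, Nedd4l was higher (1.13) and Arel1 (-1.69) and Ubr1 (-1.62) lower, of 16 read (5.76% of all genes higher and 7.36% lower).

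In NPC WT over ESC WT, Herc3 (2.65) and Hace1 (1.24) were higher and Herc4 (-1.42, 98 and 493 sites) and Ubr3 (-1.13, 58 and 239 sites) lower, of 15 read, where 11.5% of all genes were higher and 10.4% lower. The counts of ligases past a limit were thus near the share over all genes. Herc3 and Hace1 stood at 2.44 and 1.56 in the control lists too. In the control lists Herc4 had a difference of like size, -1.65 (-2.20 to -1.17), and Ubr3 stood at -0.54 (-1.14 to 0.02). Of 12 ubiquitin-activating and conjugating enzymes and ligase partners, 1 passed a limit in these 3 comparisons, Neurl4, a partner of Herc2, at -1.29 (-2.50 to -0.32) in NPC ΔZF1 over NPC WT. Of 5 known substrates, 4, 3 and 3 were read in the 3 comparisons and none of these passed. With the WT rescue, Trp53 held 140 sites in ESCs and 44 in NPCs, and Mcl1 held 44 and 27.

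Among the genes whose pattern over the 6 lists was most like that of Huwe1 were Snrpn and G3bp1, each with a mean absolute difference of 0.07 in log2 share of genic sites, against a median of 0.31 over 1852 genes with at least 200 sites in all lists together. For Trip12 they were Zcchc8, Pola1 and Fubp3, at 0.10, 0.11 and 0.15 against a median of 0.54. Pola1 held 280 sites in ESCs and 56 in NPCs with WT. Trip12 and Huwe1 themselves differed by 0.39, and Huwe1 ranked 328 by likeness to Trip12.

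Huwe1 hosts 3 microRNA genes, Mirlet7f-2 and Mir98 in intron 59 and Mir3113 in intron 16. The mature let-7f and miR-98, printed from RefSeq with the seed (bases 2 to 8) in capitals because they share it, derive from that intron.

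let-7f-5p: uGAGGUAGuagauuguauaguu
miR-98-5p: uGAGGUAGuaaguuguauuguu

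No UV list held a site in the let-7f-2 or miR-3113 hairpin, NPC WT held 1 in that of miR-98, and ESC noXL held 2, 1 and 1 in let-7f-2, miR-98 and miR-3113. The many intron sites of Huwe1 therefore did not lie on its microRNA hairpins. On the opposite strand of the 8 gene bodies, ESC WT held 2 sites, both in Herc1, and the other 5 lists held 0.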

How the data were processed

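The deposited value of each crosslink site is the score that the authors' caller, PureCLIP, gave it. The authors used Flexbar for trimming, STAR for alignment (mm10) and UMI-tools for deduplication, and pooled each group's libraries before calling. Versions are not given in the sources used here. The members and all gene lists were chosen with earlier results of these data known, and the views by part of the gene, by UUU triplet and of UV less control after values were seen.

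Sites were converted to 1-based positions and counted within GENCODE M21 gene bodies (GRCm38, the same build as mm10) on the gene's strand. Exons are those of any annotated transcript. Ratios were log2 values with 1 added to each count, scaled to genic sites, and were read where the lists compared held 20 or more sites of a gene in sum. All 8 members were named everywhere, with the wider ligases holding most ESC WT sites or past a limit, the best ESC WT site per member, sites in all UV lists, and the 3 genes of most alike pattern. Some genes that this rule names are not reported here. Alternatives changed the score minimum, base, scaling, merging, exon definition, overlap and distances. Depth is unknown, so intervals cover counting error only. Calculations were tested on simulated data and run in Python 3.11.15 with numpy 2.4.6, pandas 2.3.3 and pysam 0.24.0.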

Additional observations from a re-analysis of the deposited data

Results flagged for a closer look

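Over all its sites, Trip12 stood on opposite sides of the control share in the 2 cell types. Its scaled log2 ratio of WT over noXL was 0.39 in ESCs and -0.77 in NPCs, and that of ΔZF1 over noXL was 0.31 in ESCs and -0.84 in NPCs, with all 4 of these intervals clear of 0. In introns alone WT over noXL was 0.53 (0.33 to 0.74) in ESCs and -0.47 (-0.81 to -0.13) in NPCs, and ΔZF1 over noXL was 0.61 (0.38 to 0.84) and -1.23 (-1.63 to -0.84). In exons alone WT over noXL was 0.86 (0.39 to 1.39) and -0.27 (-0.81 to 0.31), still on opposite sides of 0 but with an NPC interval that held it, and ΔZF1 over noXL was 0.34 (-0.20 to 0.92) and 0.13 (-0.44 to 0.73). With 1 pooled list per group the difference was not tested, and both pairs use the same control lists. Trip12 was chosen by its ESC WT count, which enters the WT pair, so that pair is a description only. Trip12 sites in the controls numbered 283 in ESCs and 171 in NPCs. The other 7 members showed no such opposition with intervals clear of 0 in any of the 3 pairs of comparisons examined.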

How the results depend on the processing

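No paired analysis was possible because each group entered as 1 merged list, and leaving out single libraries could not be tried for the same reason. Of 528 ratios of single members under alternatives other than leaving out the scaling, 471 stayed within the main interval, 57 moved outside it and 46 had another sign; in these 7 comparisons no ratio past a limit changed sign. NPC ΔZF1 over ESC ΔZF1 was not among them, and there Trip12 turned from -1.31 over all sites to 0.38 in exons alone. Of the members past a limit, Trip12 in NPC WT over ESC WT ranged from -1.52 to -0.54, its value in exons alone, and Itch from -1.18 to -0.60, so either can lose its call.

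For the summed members, intron sites alone gave 0.0835 for ESC ΔZF1 over ESC WT, -0.36 for NPC ΔZF1 over NPC WT, -0.64 for NPC WT over ESC WT, 0.33 for ESC ΔZF1 over ESC noXL and -0.56 for NPC ΔZF1 over NPC noXL. Exon sites alone gave -0.15 for NPC WT over ESC WT, 0.29 for ESC WT over ESC noXL, -0.0433 for NPC WT over NPC noXL and 0.0451 for NPC ΔZF1 over NPC noXL. A score minimum gave -0.12 for ESC ΔZF1 over ESC WT and 0.28 for ESC WT over ESC noXL. Without scaling, where list length enters the ratio, the values in the order ESC ΔZF1 over WT, NPC ΔZF1 over WT, NPC WT over ESC WT, then ESC WT, NPC WT, ESC ΔZF1 and NPC ΔZF1 over noXL were -1.003, -0.61, -1.36, 1.68, 0.893, 0.672 and 0.287. At a limit of 1.5-fold, 2 members passed in NPC ΔZF1 over NPC WT and 1 in each of NPC WT, ESC ΔZF1 and NPC ΔZF1 over noXL, where none passed the 2-fold limit; 34.9%, 39.5%, 34.3% and 39.5% of all genes passed in either direction.

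With the score minimum the uridine share was 68.6% (ESC) and 71.7% (NPC) for WT, and in exons alone it was 63.8% in ESC WT, 61.0% in NPC ΔZF1, and 24.7% (ESC) and 18.3% (NPC) in the controls. With exons of the longest coding transcript only, the exon share was 37.9% (WT), 38.4% (ΔZF1) and 30.7% (noXL) in ESCs, and 56.1%, 48.0% and 34.0% in NPCs, lower by construction. ΔZF1 sites on the same nucleotide as a WT site made up 8.99% in ESCs and 5.58% in NPCs, and those within 10 nt 29.1% and 17.8%. For the other changes the cause was not tested. The read depth behind every list is unknown.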
